A study of Homo sapiens with 9 samples.

Results

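The scattered intergenic peaks are 1482 of the 9857 regions of acetylated histone H3 lysine 27 (H3K27ac) called on chromosomes 1 to 22, X and Y, or 15% of them. The cells were RPMI-8402, a line grown from a patient's T-cell acute lymphoblastic leukaemia (T-ALL). A peak was taken when its summit, the base of highest enrichment, lay over 1 kb from both ends of every RefSeq protein-coding gene. Such peaks were chained across gaps of up to 12.5 kb, chains of 5 or more peaks were dropped, and of the rest those with the summit outside all protein-coding gene bodies were kept. The other peaks form 3 classes: 2180 clustered distal peaks in the dropped chains, 2430 scattered peaks inside a protein-coding gene, and 3765 gene-end peaks within 1 kb of an end. In numbers of peaks, 6092 passed the distance step and formed 2678 chains, of which 271 held 5 or more peaks.

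The study used chromatin immunoprecipitation with sequencing (ChIP-seq) on 9 samples of this line. One library was made with an antibody to H3K27ac; its genotype label reads NKX2-1, as on the knockout clones, but no clone is named and the design text does not place it, so the allele state of those cells is uncertain. In 8 libraries the antibody (ab76013) was raised to the homeodomain factor NKX2-1 (TTF1): 4 from the clones C12, C15, S04 and S36, which carry that same genotype label and are taken as knockout from the design text, and 4 from the wild-type (WT) clones WT10, WT13, WT28 and WT30. All libraries come from clones or cells of a single leukaemia line, with no drug treatment named in the labels, and each clone has 1 library. H3K27ac was measured once, so its values have no replicate error, and differences in H3K27ac between peak classes are given as descriptions without a test.

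Acetylation of lysine 27 loosens chromatin and marks active promoters and active enhancers, the stretches of DNA that raise transcription of a gene from a distance. Enhancers often lie between genes, alone or in dense groups, and peaks far from any protein-coding gene can also sit on promoters of genes for non-coding RNA. In T-ALL, developing T cells are arrested and proliferate, and transcription factors that are normally silent in T cells, NKX2-1 among them, can be switched on. NKX2-1 is best known for its role in the development of lung and thyroid.

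The name intergenic holds for these peaks with respect to protein-coding genes only, as many lie in genes for non-coding RNA. The RefSeq table (GRCh38.p14) places 555 of the 1482 summits (37.4%, 95% Wilson interval 35.0 to 39.9) inside a non-coding gene entry, and 69 peaks (4.66%) overlap the promoter window of a long non-coding RNA (lncRNA). Among all 9857 H3K27ac peaks the same shares were 18.0% and 4.58%. The promoter windows, 250 bases before to 50 bases after a transcript's start, are the only genomic sequence at hand for these peaks; 5 are shown because their peaks are among the strongest of the named lncRNA promoters or, for MIR181A1HG, because several peaks share its locus near PTPRC. They are given on the strand of the gene, 5′ to 3′, from RefSeq GRCh38.p14, with matches to 6 short motifs in capitals, searched on both strands. The letters were TGTGGT for RUNX factors, CCGGAA for ETS factors, CAGCTG for E-box factors, AGATAA for the family of GATA factors, CACTTG for NKX factors and TGACGT for the CRE element. MALAT1, an abundant nuclear lncRNA, has a window at chr11:65498795-65499094 on the plus strand. NORAD, a lncRNA that binds Pumilio proteins, has one at chr20:36050911-36051210 on the minus strand. LINC01719 has one at chr1:146052346-146052645 on the plus strand, and DYM-AS1 one at chr18:49023453-49023752 on the plus strand. MIR181A1HG, the host transcript of a miR-181a precursor, has one at chr1:198937380-198937679 on the minus strand.
MALAT1: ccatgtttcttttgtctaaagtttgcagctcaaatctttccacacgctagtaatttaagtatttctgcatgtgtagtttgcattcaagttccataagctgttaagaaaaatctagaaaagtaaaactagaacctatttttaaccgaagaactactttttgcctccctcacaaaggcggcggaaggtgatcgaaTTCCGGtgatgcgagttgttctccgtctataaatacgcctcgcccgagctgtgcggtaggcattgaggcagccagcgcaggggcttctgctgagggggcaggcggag
NORAD: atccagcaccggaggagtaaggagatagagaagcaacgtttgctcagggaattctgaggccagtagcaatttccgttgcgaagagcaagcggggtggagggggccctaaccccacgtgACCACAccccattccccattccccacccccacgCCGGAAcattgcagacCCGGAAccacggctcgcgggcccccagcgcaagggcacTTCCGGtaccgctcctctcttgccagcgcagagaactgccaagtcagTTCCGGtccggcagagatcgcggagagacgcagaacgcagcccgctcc
LINC01719: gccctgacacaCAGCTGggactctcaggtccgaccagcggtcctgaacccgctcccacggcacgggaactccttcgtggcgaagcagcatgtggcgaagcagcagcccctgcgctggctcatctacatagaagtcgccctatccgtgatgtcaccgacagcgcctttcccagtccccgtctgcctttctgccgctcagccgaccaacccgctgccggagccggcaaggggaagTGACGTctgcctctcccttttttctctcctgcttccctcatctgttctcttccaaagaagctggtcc
DYM-AS1: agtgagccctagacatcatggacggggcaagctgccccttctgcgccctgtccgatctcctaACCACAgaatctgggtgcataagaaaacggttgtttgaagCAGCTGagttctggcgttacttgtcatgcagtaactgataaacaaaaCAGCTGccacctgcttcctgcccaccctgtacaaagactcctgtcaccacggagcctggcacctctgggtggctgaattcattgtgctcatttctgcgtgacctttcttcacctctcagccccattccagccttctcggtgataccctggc
MIR181A1HG: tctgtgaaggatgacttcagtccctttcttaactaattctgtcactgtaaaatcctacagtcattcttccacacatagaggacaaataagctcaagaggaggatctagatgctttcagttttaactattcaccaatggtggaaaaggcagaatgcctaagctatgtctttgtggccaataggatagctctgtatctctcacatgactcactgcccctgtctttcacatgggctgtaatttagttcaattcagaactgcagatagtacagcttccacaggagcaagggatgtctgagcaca

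In these windows the ETS letters occurred 4 times in NORAD and once in MALAT1. RUNX letters occurred once in NORAD and once in DYM-AS1, and E-box letters once in LINC01719 and 2 times in DYM-AS1. LINC01719 also held the CRE letters once. Of windows not shown, the other MALAT1 window under the same peak (chr11:65497488-65497787) and that of LINC02076 held none of the 6 motifs, and that of LINC02983 held the GATA letters once. MIR181A1HG held none of the 6 motifs. Over all 75 lncRNA windows that the 69 peaks overlap, ETS letters were found in 22 (29.3%), against 10.5% of the 12917 lncRNA windows and 17.2% of all 35116 promoter windows. The windows also differ in base composition, with a median GC content of 59.3% at the peaks, 50% over lncRNA windows and 58.7% over all windows, and its part in the motif shares was not tested. RUNX letters were in 12% of the 75 windows, against 16.2% of lncRNA windows and 13.1% of all. The E-box was in 17.3%, 17.8% and 17.9%, in the same order, the GATA letters in 6.67%, 14.5% and 10.3%, the NKX letters in 8%, 13.4% and 11.5%, and the CRE letters in 9.33%, 6.33% and 7.98%. A match is a run of letters and not a shown binding site.

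The H3K27ac signal at scattered intergenic peaks had the same median as that of all H3K27ac peaks, and the highest single value of the 4 classes. The fold enrichment at the summit, as deposited by the authors, had a median of 6.19 (quartiles 5.45 and 7.41, range 3.94 to 27.7). Medians in the other classes were 5.95 at clustered distal, 5.94 at scattered in-gene and 6.43 at gene-end peaks. At 10-fold or more stood 127 scattered intergenic peaks (8.57%), against 8.26% of clustered distal, 5.02% of scattered in-gene and 9.61% of gene-end peaks. The values come in steps: the 1482 peaks take 321 distinct folds, and 95 of them share the value 5.70. Peaks covered 844 kb in all, with a median width of 385 bp (200 to 7372), against 386 bp at clustered distal, 354 bp at scattered in-gene and 424 bp at gene-end peaks.

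**Figure D1:**
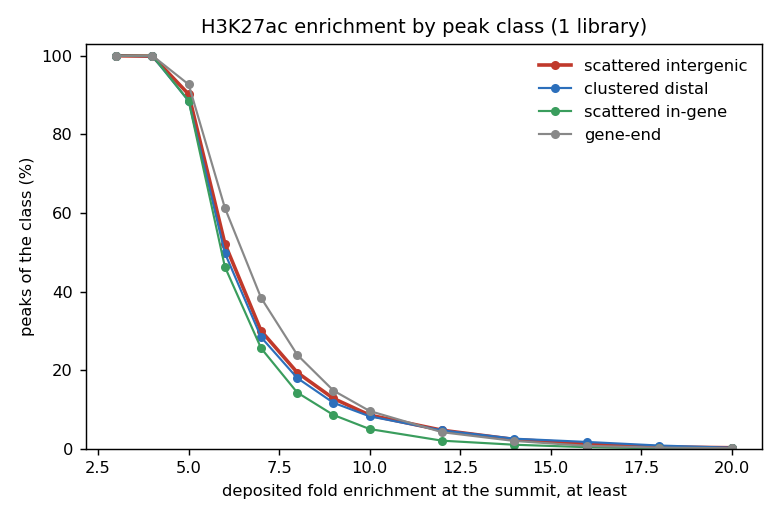
Share of H3K27ac peaks of each class (y axis, %) whose deposited fold enrichment reaches the value on the x axis, from 1 library. The scattered intergenic curve lies close to the clustered distal one, with 8.57% and 8.26% of peaks at 10-fold or more, while the scattered in-gene curve lies lowest at that point with 5.02%.

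Scattered peaks were not all lone peaks. Chains of 1 peak held 513 of the 1482, chains of 2 held 472, chains of 3 held 312 and chains of 4 held 185; a chain may also hold in-gene peaks. The median fold was 5.97 in chains of 1 and 6.19 in each of the longer kinds. Just beyond the chain limit, 150 intergenic peaks in chains of 5 also had a median of 6.19. The nearest other H3K27ac peak was itself a scattered intergenic peak for 1089 (73.5%), with a median gap of 461 bp, and a gene-end peak for 246 (16.6%), with a median gap of 51644 bp. For 467 peaks (31.5%) the gap was over 12.5 kb and for 63 (4.25%) it was over 500000 bp. The most isolated was a peak at chr5:18745661-18745930 inside LINC02100, nearest to the cadherin gene CDH18, which stood 8391142 bp from the next peak and had a 5.87-fold enrichment. A peak inside MIR17HG, the host transcript of the miR-17-92 microRNAs, had no other peak within 4465240 bp and a 6.19-fold enrichment (chr13:91347810-91348059). The 10 most isolated peaks, which also include those nearest to OR11H1, PCDH10, ATP2B1, CNTN6, SLITRK1 and 3 genes with only LOC symbols, had gaps of at least 2226747 bp and folds of 4.72 to 9.36.

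Most summits lay far from a protein-coding gene on the scale of a promoter. The distance had a median of 31448 bp (quartiles 9105 and 94032 bp), and 579 summits (39.1%) lay over 50 kb away. Between 1 and 5 kb lay 254 peaks (17.1%), and over 1 Mb lay 21 (1.42%). Fold enrichment changed little over these bins, with medians of 5.94 from 1 to 5 kb, 6.19 from 10 to 50 kb and 6.43 over 1 Mb. The farthest peak, at chr22:10872087-10872286, was 4656094 bp from the olfactory receptor gene OR11H1 and had a 4.72-fold enrichment. Next came a pair of peaks 1570666 and 1569747 bp from SUCLG1 (5.45- and 5.70-fold), a peak 1411175 bp from UQCRFS1 (5.94-fold) and one 1344533 bp from TMEM121 in the immunoglobulin heavy chain locus (10.8-fold). At the limit of the rule, the nearest peaks inside were each 1005 bp from a gene end, at STPG4 (7.90-fold), PGGHG (9.85-fold) and FBRSL1 (5.94-fold). The nearest outside were 999 bp from SLFN11 (7.96-fold), 998 bp from ATP2C1 (8.63-fold) and 990 bp from TEX2 (6.22-fold).

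**Figure D2:**
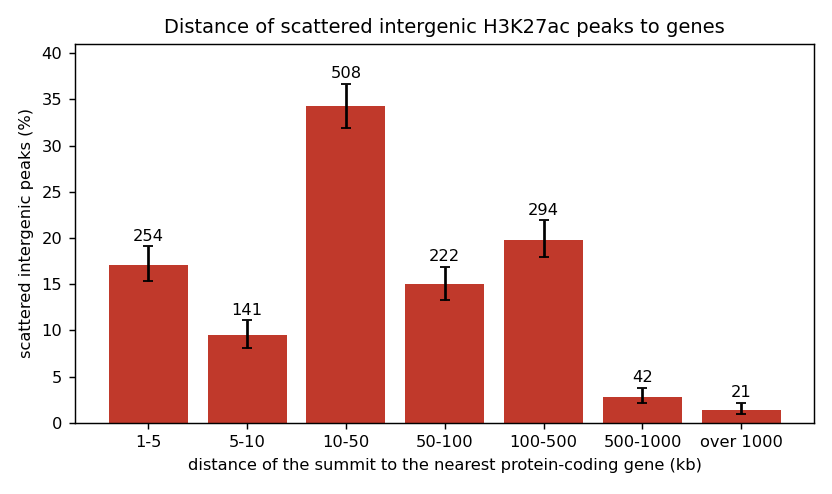
Share of the 1482 scattered intergenic peaks (y axis, %, with 95% Wilson intervals) by distance of the summit to the nearest protein-coding gene (x axis, kb), with the number of peaks above each bar. The bin from 10 to 50 kb is the fullest with 508 peaks, and 21 peaks lie over 1000 kb away.

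By chromosome, the peaks were most numerous on chromosome 1 (207), chromosome 2 (156) and chromosome 3 (116). As a share of each chromosome's H3K27ac peaks they were highest on chromosome 13 (27.4%, 17 peaks) and lowest on chromosome 11 (8.91%) and chromosome 19 (9.44%).

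The strongest scattered intergenic peak, with 27.7-fold enrichment, lay at chr1:16904473-16905376, 9002 bp from CROCC, a ciliary rootlet protein gene, and 8940 bp from the U1 RNA gene RNU1-2. The second, 21.1-fold at chr1:110786027-110788588, stood 83585 bp from CD53, which encodes a leukocyte tetraspanin, in a chain of its own. A peak of 20.8-fold at chr17:45583689-45587029 was nearest to LINC02210-CRHR1, a readthrough locus, one of 18.9-fold was 3976 bp from LOC124905566, and a peak of 18.9-fold at chr8:134160362-134162697 was 316786 bp from the zinc finger gene ZFAT. Peaks near RIPOR1 (18.1-fold), AJAP1 (17.9-fold), NDUFA10 (17.9-fold), RCSD1 (17.7-fold), GLYAT (17.7-fold) and STT3B (17.7-fold) followed. The widest peak was 7372 bp, at chr2:16432889-16440260, 111109 bp from CYRIA, with 17.2-fold enrichment.

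Summits lay inside a lncRNA gene or a pseudogene more often at scattered intergenic peaks than at the other classes. The summit lay inside a lncRNA gene for 449 of the 1482 (30.3%, 28 to 32.7), against 18.3% of clustered distal, 9.55% of scattered in-gene and 11.9% of gene-end peaks. Inside a pseudogene lay 78 (5.26%, 4.24 to 6.52), against 0.917%, 0.535% and 0.319% in the same order. The classes are set by where protein-coding genes lie, so the room for non-coding genes differs between them by construction. Intervals cover counting error only, and peaks of 1 library are not replicates. No non-coding feature searched for here was found at 841 scattered intergenic peaks (56.7%), against 73.4% of clustered distal, 85.0% of scattered in-gene and 74.3% of gene-end peaks.

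**Figure D3:**
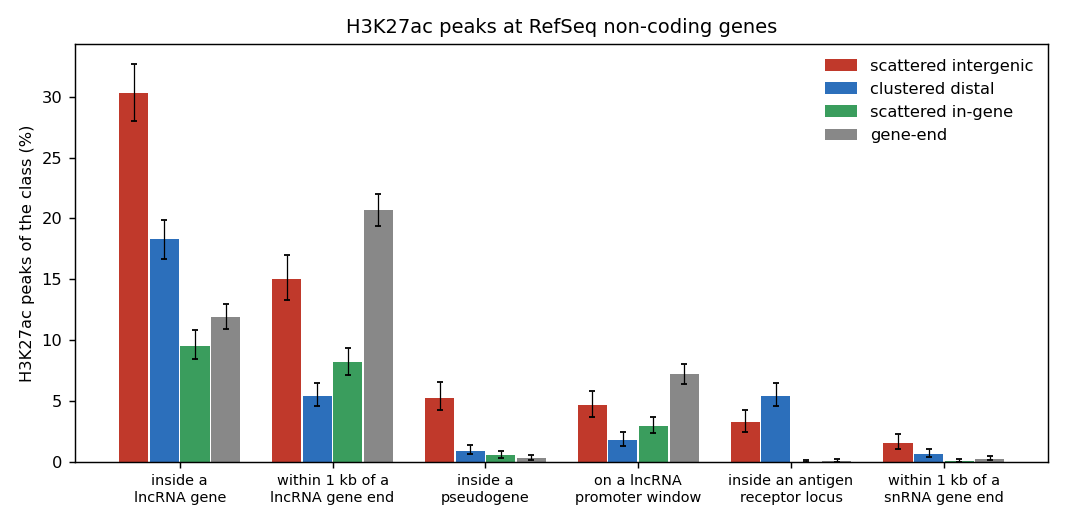
Share of H3K27ac peaks of each class (y axis, %, with 95% Wilson intervals) with each of 6 RefSeq non-coding features (x axis). Scattered intergenic peaks are the highest bar inside lncRNA genes (30.3%), inside pseudogenes (5.26%) and near small nuclear RNA genes (1.55%). Gene-end peaks are highest within 1 kb of lncRNA gene ends (20.7%) and on lncRNA promoter windows (7.20%). Clustered distal peaks are highest inside antigen receptor loci (5.41%).

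At lncRNA promoters, the 69 peaks touched windows of 69 lncRNA genes. The share, 4.66% (3.70 to 5.85), was above that of clustered distal (1.79%) and scattered in-gene (2.96%) peaks and below that of gene-end peaks (7.20%). MALAT1 carried the strongest, 18-fold at chr11:65497694-65499566. Among lncRNAs with a name other than a LOC symbol, LINC02983 followed with 16-fold, then NORAD with 13.5-fold (chr20:36050189-36051107), LINC01719 with 12.3-fold, LINC02076 with 11.1-fold and DYM-AS1 with 10.8-fold. The LINC01719 peak is also the peak of the U1 gene RNVU1-6, which lies inside it, so it counts in both groups and which U1 copy its reads came from is uncertain. Of LOC entries, LOC105369663 (14.2-fold), LOC124903399 (14.2-fold) and LOC105370449 (14.1-fold) stood between LINC02983 and NORAD. SNHG29, a host of small nucleolar RNAs, had 9.85-fold, and MIRLET7A1HG, a let-7 host transcript, 9.61-fold. MIR181A1HG had 8.87-fold and DLEU1 7.16-fold. Of the 69 peaks, each counted with 1 of its windows, 37 had the summit within 1 kb downstream of the start and 31 within 1 kb upstream.

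Among small RNA genes, those for U1 carried the strong peaks. Within 1 kb of an end of a small nuclear RNA (snRNA) gene lay 23 scattered intergenic peaks (1.55%, against 0.467% of all H3K27ac peaks), against 13 clustered distal, 1 scattered in-gene and 9 gene-end peaks. Of these, 13 stood at 13 of the 21 listed genes for U1, the RNA that recognises the upstream splice site, all on chromosome 1. Their fold ran from 5.01 to 20.7 with a median of 12.3, and the highest were RNU1-1 (20.7), RNU1-3 (16.5), RNVU1-19 (14.2) and RNU1-4 (14). RNU6ATAC, an RNA of the minor spliceosome, had 2 peaks of 8.14-fold each, and RNU5A-1, RNU5B-1 and RNU5D-1, for U5, had 5.87-, 5.70- and 6.97-fold. U1 genes are near-identical copies, so which copy the reads came from is uncertain. The U3 genes SNORD3A, SNORD3B-1, SNORD3B-2, SNORD3C and SNORD3D on chromosome 17, also close copies, had 7.08-, 5.68-, 6.16-, 8.10- and 7.59-fold. Transfer RNA genes had 11 peaks within 1 kb (0.742%, against 0.314% of all H3K27ac peaks and 0.452% of gene-end peaks) with a median of 5.76-fold, from TRL-TAA1-1 at 5.21-fold to TRD-GTC1-1 at 8.40-fold.

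Within 1 kb of a microRNA gene lay 13 peaks, a share of 0.877% that is no higher than the 0.994% of all H3K27ac peaks and the 1.46% of gene-end peaks. MIRLET7I, a let-7 gene, had peaks of 5.70- and 4.86-fold, and MIR1205 in the PVT1 locus had 7.26- and 6.13-fold. The MIR4449 hairpin lay inside the peak at chr4:52712680-52713217, which had 6.68-fold enrichment and was 29671 bp from ERVMER34-1. It is shown as the microRNA whose hairpin a peak covers, plus strand, with the seed (bases 2 to 8) in capitals, from RefSeq.
hsa-miR-4449: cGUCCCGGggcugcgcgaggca

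The antigen receptor loci, whose gene segments are joined during lymphocyte development, held 48 scattered intergenic peaks (3.24%), against 1.70% of all H3K27ac peaks. The share was higher at clustered distal peaks, with 118 (5.41%), and the loci held 0 scattered in-gene and 2 gene-end peaks. The immunoglobulin heavy chain locus IGH held 30 of the 48, among 101 H3K27ac peaks of which the other 71 were clustered distal. The 30 had a median of 7.04-fold (4.14 to 16), with IGHV3-30 (16), IGHV3-33 (15.5) and IGHV3-66 (15) highest; IGHV segments are similar in sequence, so their placement is uncertain. The T-cell receptor beta locus TRB held 11 of 58 peaks, from 4.72- to 11.1-fold, the highest nearest to TRBV19. The alpha locus TRA held 4 of 4, of which 3 lay in the delta locus TRD nested in it, nearest to TRDD1, with 10.3-, 6.68- and 5.21-fold. The gamma locus TRG held 2 of 2, IGL 1 of 3, and IGK held no H3K27ac peak. These segments are not entries of the protein-coding class, so the peaks count as intergenic here.

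As the nearest protein-coding gene, 792 of 20033 genes (3.95%) had a scattered intergenic peak, 440 of them only 1. TMEM121 had 30, all in IGH at 451141 to 1344533 bp. HS6ST1, a heparan sulfate sulfotransferase gene, had 12 with folds of 4.72 to 7.65, of which 7 lay in LOC105373611. TSN, which encodes translin, had 11, of which 9 lay in LOC105373592. RYBP, a Polycomb complex gene, had 10 with folds of 4.48 to 7.90. PTPRC, which encodes the leukocyte phosphatase CD45, had 10 of its 11 nearest peaks in the class, at 178139 to 461522 bp, with a median of 7.77-fold. These PTPRC peaks lay in non-coding genes, among them the MIR181A1HG promoter peak shown above, 4 peaks in LINC01221 and 3 in LINC02789, the strongest at 12.5-fold.

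Lists of genes relevant to T-ALL were read against the share of 3.95% of all protein-coding genes. Of 20 T-ALL transcription factor genes, 5 were nearest to a scattered intergenic peak: MYB, HHEX, BCL11B, MYC and NKX2-1. MYB, which sustains immature blood cells, had 4, of 13.4-, 7.06-, 6.77- and 5.01-fold at 15032 to 31955 bp. HHEX, a homeobox gene, had 3 at 60228 to 62472 bp, of 8.14-, 6.92- and 5.94-fold. MYC had 2 inside the lncRNA gene PVT1 (7.26- and 6.13-fold at 217198 and 218457 bp), and BCL11B, a T-lineage factor, had 2 over 1 Mb away (6.43- and 4.97-fold). NKX2-1 itself had 1, of 5.21-fold and 6813 bp away at chr14:36509531-36509756, inside the lncRNA gene SFTA3.

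Of 19 genes of RUNX1 and its haematopoietic partners, 6 had a peak, with FLI1 (12.3-fold, 6417 bp) and TCF12 (11.8- and 6.92-fold) strongest, and ETS1, ETS2, IKZF2 and IKZF3 between 4.97- and 7.90-fold. Of 35 T-cell development genes, 11 had one. ID2, an inhibitor of E-protein transcription factors, had 1 of 12.3-fold at 781765 bp, and ID3, another, had 6 of 4.61- to 6.52-fold. DNTT, which adds nucleotides at receptor joints, had 3 of 9.12-, 7.48- and 4.72-fold. Of 19 NOTCH pathway genes, 3 had one, of which the target HES1 had 4 peaks of 9.36-, 6.19-, 5.94- and 5.21-fold and FBXW7, which degrades activated NOTCH1, had 3 of 10.1-, 5.21- and 4.72-fold. Of 16 apoptosis genes, 2 had one, BAX (6.97-fold) and BCL2 (6.19-fold). Of 19 lung and thyroid targets of NKX2-1, none had one, and of 18 B-cell and myeloid genes 2 did, PAX5 (5.21-fold) and MPO (5.94-fold). Nearness does not show which gene a peak acts on, and genes in wide intergenic space have more room for such peaks.

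For the cell type, H3K27ac peaks at the gene or within 1 kb of it were found for 6 of 10 T-lineage markers, none of 6 B-lineage, none of 5 myeloid and none of 4 erythroid markers. CD2, CD7, TRBC1 and PTCRA of the T-lineage list had no peak. The share of all protein-coding genes with such a peak is not given here. These counts therefore have no background to be read against and do not test the cell type.

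NKX2-1 calls were rare at scattered intergenic peaks in every library. A peak counted as called when a library's NKX2-1 peak overlapped it by 1 bp or more. Among knockout clones C12 had 5 called (0.337%, Wilson interval 0.144 to 0.787), C15 had 2 (0.135%), S04 had 0 of 1482 (Wilson upper limit 0.259%; 0.202% by a floor of 3 counts), and S36 had 14 (0.945%, 0.564 to 1.58). Among WT clones WT10 had 17 (1.15%, 0.717 to 1.83), WT13 had 1 (0.0675%), WT28 had 8 (0.540%) and WT30 had 5 (0.337%). S36 and WT10 were the highest of their groups, and the groups overlapped. S36 and WT10 also had the most NKX2-1 peaks in all, 934 and 1144, against 742 to 875 in the other 6 libraries, and the part of this in the result was not tested. Knockout clones averaged 0.354% ± 0.417 and WT clones 0.523% ± 0.459 (SD, n = 4 each), a difference of -0.169 percentage points that did not exceed the spread between clones (two-sided exact permutation test, p = 0.600, adjusted p = 0.773 over 4 tests; the smallest p this design allows is 0.0286). Without WT10 the difference was 0.0394 points, the other way. Without both S36 and WT10 it was -0.157 points (exact permutation p = 0.5).

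**Figure D4:**
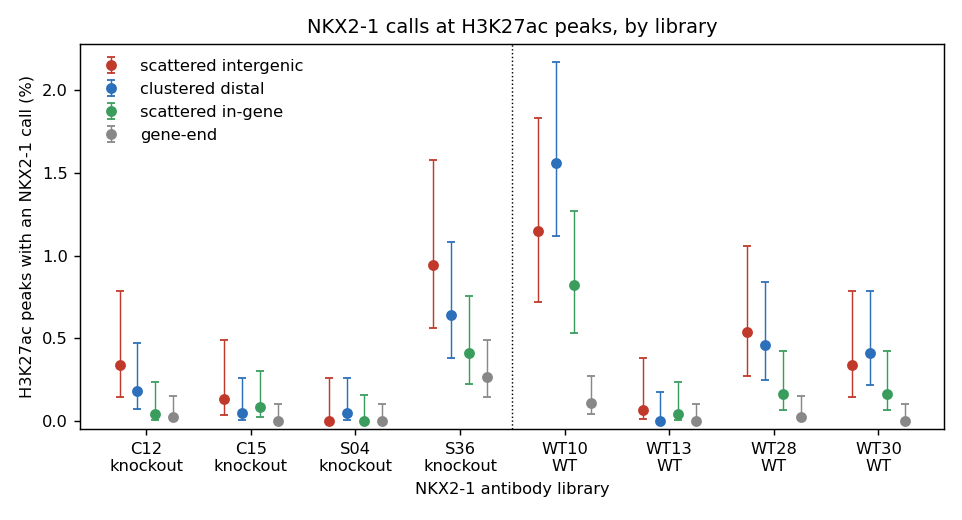
Share of H3K27ac peaks with an NKX2-1 call (y axis, %, with 95% Wilson intervals) in each NKX2-1 antibody library (x axis, knockout clones left of the dotted line and WT clones right of it), by peak class. For scattered intergenic peaks S36 (0.945%) and WT10 (1.15%) stand highest, and S04 has 0.

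Set against the other classes within each library, scattered intergenic peaks were called more often than scattered in-gene and gene-end peaks. Over the 8 libraries they averaged 0.439% ± 0.416, against 0.419% ± 0.516 at clustered distal, 0.216% ± 0.277 at scattered in-gene and 0.0531% ± 0.0931 at gene-end peaks (SD, n = 8). The difference from scattered in-gene peaks was 0.223 points, higher in 7 of 8 libraries and equal in S04 (two-sided exact sign-flip permutation test, p = 0.0156, adjusted p = 0.0312). In C15 and WT13 both classes had the same count of called peaks (2 in C15, 1 in WT13), under the floor of 3 counts. There the shares differed only through the sizes of the classes. The difference from gene-end peaks was 0.385 points, also higher in 7 of 8 and equal in S04 (exact permutation p = 0.0156, adjusted p = 0.0312). With S04 equal, 0.0156 was the smallest p the sign-flip permutation test could reach. It was 0.0312 once any other library was left out, and both calls were then lost (exact permutation, adjusted p = 0.0625 each). That loss came with the higher reachable p and cannot show dependence on any 1 library. Both calls were also lost when gene ends were set at 2 kb (exact permutation, adjusted p = 0.0938 for in-gene and 0.0625 for gene-end peaks). With classes set anew on H3K27ac peaks of −log10 q 10 or more, the in-gene call was lost too (exact permutation, adjusted p = 0.429). From clustered distal peaks the difference was 0.0200 points, higher in 5 of 8 libraries (exact permutation p = 0.773, adjusted p = 0.773). This comparison depended on how the classes were set: it was 0.189 points with chain gaps of 5000 bp (exact permutation, adjusted p = 0.0417) and 0.180 points with all RefSeq genes as genes (exact permutation, adjusted p = 0.0208). It was -0.0455 points with gene ends at 2 kb, -0.0418 points with an overlap of 0.5 or more of the NKX2-1 peak and -0.0203 points without S36. Taken by genotype, the difference from clustered distal peaks was 0.125 ± 0.145 points in knockout clones and -0.0849 ± 0.230 in WT clones (SD, n = 4 each), and this contrast did not pass the exact permutation test (p = 0.143, adjusted p = 0.429 over 3). For scattered in-gene and gene-end peaks the same contrasts gave exact permutation p = 0.971 and p = 0.457.

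In all, 27 scattered intergenic peaks (1.82%) were called in 1 or more of the 8 libraries, 9 in knockout clones only, 13 in WT clones only and 5 in both. The same count and split over all H3K27ac peaks are not given here, so these have no background to be read against. By genotype, 14 were called in any knockout clone (0.945%, against 0.487% of all H3K27ac peaks) and 18 in any WT clone (1.21%, against 0.812% of all). Of the 27, 8 rested on S36 alone and 6 on WT10 alone. The called peaks had a median H3K27ac fold of 8.14, against 6.19 at uncalled ones, and 6 of them reached 10-fold. A wider peak is more easily overlapped by 1 bp, and the part of width in this difference was not tested. Adjacent peaks at TMEM236, CPN2 and MYLK4 shared 1 NKX2-1 peak in a library, so they are not separate sites there. The counts, shares and tests above still count each of them singly.

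Among peaks called in knockout clones, the one near HLA-E, a non-classical HLA class I gene, had NKX2-1 folds of 5.74 in C12, 7.77 in C15 and 14.7 in S36, and 6.42 in WT28. The peak 1378 bp from NAA10, an N-terminal acetyltransferase gene, had 7.15 in C12, 6.09 in C15 and 9.09 in S36, and 7.32 in WT10 and 5.97 in WT30. The peak near NT5M, a mitochondrial nucleotidase gene, had 7.34 in C12 and 15.4 in S36, and 6.45 in WT10. Each of these was called in clones of both genotypes. A peak 6822 bp from TMEM236 was called in 2 knockout clones, with 5.41 in C12 and 10.5 in S36, and in no WT clone. The peak 4683 bp from WDR5, which is also the RNU6ATAC peak, was called in S36 alone (6.11).

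Of peaks called in WT clones only, 1 was called in all 4, near C1orf174 (chr1:4173257-4178162, 277285 bp away, 16.5-fold H3K27ac), with NKX2-1 folds of 12.9 in WT10, 6.65 in WT13, 7.94 in WT28 and 9.11 in WT30. The wide CYRIA peak was called in 3, with 4.93 in WT10, 4.26 in WT28 and 4.75 in WT30. A peak 543546 bp from KRABD4 was also called in 3, with 5.92 in WT10, 5.63 in WT28 and 3.09 in WT30. Peaks called in 2 WT clones numbered 4. At PTPRC a peak inside LINC01221 was called in WT10 (5.17) and WT28 (5.52), and near OLFM1, a secreted glycoprotein gene, a peak was called in WT10 (8.72) and WT30 (5.67). Peaks near MYLK4 (9.98 and 9.94) and VANGL1 (8.41 and 5.69) were called in WT10 and WT28, in that order. These peaks were chosen for having no call in a knockout clone, so that absence is not a result. Another scattered intergenic peak, 400 bp from the VANGL1 peak, was called in the knockout clone S36 (5.13).

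**Figure D5:**
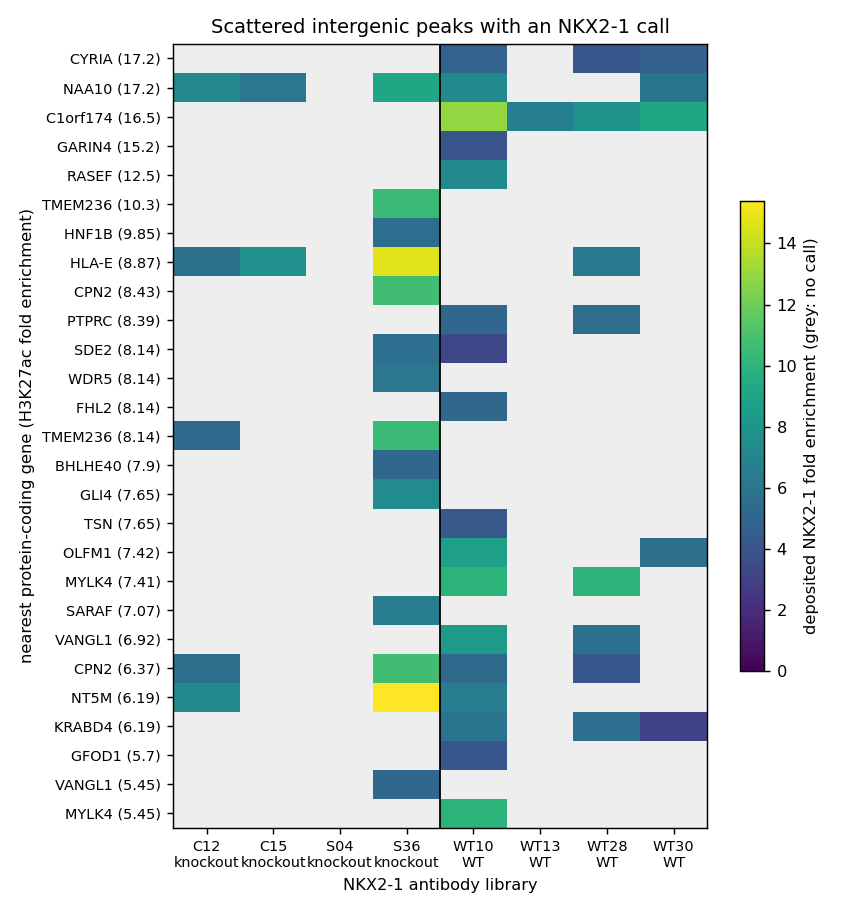
Deposited NKX2-1 fold enrichment (colour; grey, no call) at the 27 scattered intergenic peaks called in 1 or more libraries (rows, named by nearest protein-coding gene with the H3K27ac fold in brackets), knockout clones left of the line and WT clones right of it. The C1orf174 row is filled in all 4 WT clones and no knockout clone, whereas the HLA-E, NAA10 and NT5M rows are filled on both sides.

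Both deposited series-level lists overlapped few of these peaks. The combined list of 209 NKX2-1 peaks, which the labels of all 8 NKX2-1 libraries cite, overlapped 11 scattered intergenic peaks (0.742%, 0.415 to 1.32), against 0.325% of all H3K27ac peaks, 0.459% of clustered distal, 0.412% of scattered in-gene and 0.0266% of gene-end peaks. These 11 had a median H3K27ac fold of 11.3, and the part of peak width in this was not tested either. Besides C1orf174, CYRIA, KRABD4 and OLFM1 they lay near GARIN4, FHL2 and TSN, and 4 had no call in any single library, near LSM3, ARRDC2, RBM38 and MYO18B. The list of 496 WT-only regions overlapped 12 (0.810%, 0.464 to 1.41), against 0.629% of all H3K27ac peaks and 1.42% of clustered distal peaks; no region of that list overlaps a peak of a knockout clone, so absence from those clones is a property of the list.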

How the data were processed

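Peak lists were deposited by the authors for 8 NKX2-1 libraries, 1 H3K27ac library and 2 series-level lists. The submitters' processing notes name Bowtie2, deepTools, FastQC, MACS2 and SAMtools, with the build hg38; versions, peak-calling settings and the control are not given in the sources used here. In the deposited lists the fold enrichment at the summit is a ratio, and the −log10 q-value is also the authors'; both come from their peak caller. No read depth is given, so precision is limited to counts of peaks.

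Classes were rebuilt from summits and the RefSeq gene table (GRCh38.p14, 20033 protein-coding genes), with an overlap of 1 bp or more. Shares carry 95% Wilson intervals; groups were compared with two-sided exact permutation tests over libraries (70 assignments or 256 sign flips), with Benjamini-Hochberg adjustment over 4 tests. Scripts ran in Python 3.11.15 with pandas 2.3.3 and scipy 1.17.1 and were tested on simulated peaks. The peaks and the 8 gene lists were chosen with earlier results of these data known. Named peaks are the 10 of highest fold, the extremes of distance and spacing, those called for NKX2-1 and list members; others were chosen after their values were seen. Results for 1 gene list and a few single genes are not reported here. No peak sequence was read, as no genome was used here.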

Additional observations from a re-analysis of the deposited data

Results flagged for a closer look

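In 8 groups of 4 clones, the share of H3K27ac peaks with an NKX2-1 call was examined for a clone far from the others of its group, and 2 stood out; chance flags about 1 in 20 groups. The share of scattered in-gene peaks in WT10 was 0.823%, far from the other WT clones. The share of gene-end peaks in S36 was 0.266%, far from the other knockout clones. Both concern the classes that the scattered intergenic peaks were set against.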

How the results depend on the processing

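No paired analysis was possible because replicate numbers follow accession order and pair no clones. With gene ends at 2 kb, the NKX2-1 difference of scattered intergenic from clustered distal peaks was -0.0455 points, from in-gene 0.134 and from gene-end peaks 0.311, neither of the last pair passing the adjusted threshold. With chain gaps of 5000 bp the clustered distal difference was 0.189 points and passed, knockout minus WT was -0.380 points, the in-gene difference 0.360 points and the WT-only overlap 1.29%; with gaps of 25000 bp, 3.64% of genes were nearest to a peak. With only H3K27ac peaks of −log10 q 10 or more, the classes were set anew, giving 316 scattered intergenic peaks and no clustered distal class. Peaks of the former clustered distal chains can enter these 316, so their values are not those of the strong peaks among the 1482. Knockout minus WT was -1.50 points, the gene-end difference 1.69 points and the in-gene difference 0.279 points without passing. The list overlaps were 3.48% (combined) and 5.38% (WT-only), the median distance 40387 bp and the median fold 10.8. The share in non-coding genes was 41.5% and the share of genes 1.04%. With all RefSeq genes as genes, the classes set anew held 844 scattered intergenic peaks, with a median distance of 25845 bp and 2.40% of genes. Knockout minus WT was then -0.296 points, and the clustered distal difference was 0.180 points, which passed. Requiring an overlap of 0.5 or more of the NKX2-1 peak gave -0.0418 points for clustered distal, 0.135 for in-gene and 0.208 for gene-end peaks, the last pair passing, and 0.472% for the combined and 0.405% for the WT-only list. Keeping NKX2-1 peaks of −log10 q 10 or more gave 0.139 points against in-gene and 0.181 against gene-end peaks, both passing. Leaving out each clone gave -0.365 to 0.0394 points for knockout minus WT (0.0394 without WT10), -0.0203 to 0.0818 against clustered distal (-0.0203 without S36), 0.178 to 0.254 against in-gene and 0.292 to 0.441 against gene-end peaks. Fewer libraries raise the smallest p a test can reach. Counting called peaks per Mb covered, chosen after seeing the data together with leaving out S36 and WT10, kept the in-gene (3.56 per Mb) and gene-end (6.75 per Mb) calls. The cause of the other changes was not tested.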
